A study of Mus musculus with 12 samples.

Results

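The genes examined here are 10 chosen by symbol, the major histocompatibility complex (MHC) class II genes Cd74, H2-Aa, H2-Ab1, H2-Eb1, H2-DMa, H2-DMb1, H2-DMb2, H2-Oa and H2-Ob and their regulator Ciita. They fill 9 of the 19852 entries of the deposited table, because H2-DMb1 and H2-DMb2 share 1 entry. Ciita is listed jointly with EG669998, which RefSeq gives as another name for Ciita. The study sequenced RNA from whole livers of C57BL/6 mice, 20 weeks old, with 3 libraries in each of 4 groups. The groups were female ARE-Del, female wild type (WT), male ARE-Del and male WT, the WT mice being littermate controls. The ARE-Del allele lacks an AU-rich element of Ifng that shortens the life of its mRNA, so the mice express interferon-gamma (IFN-gamma) chronically. The extraction protocol writes the genotype as ARE-Del-/-, and the allele is a germline one, carried by every cell type. All levels are RPKM, a read count divided by gene length and library size, so that levels of different genes can be set side by side.

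MHC class II molecules are pairs of an alpha and a beta chain that show peptides from the endosome to CD4 T cells. The invariant chain (Cd74) fills the groove of a new class II molecule and guides it to the endosome, where proteases trim it to a short remnant. H2-DM exchanges that remnant for peptide, and H2-DO (H2-Oa with H2-Ob) inhibits H2-DM. Ciita does not bind DNA itself: it joins the RFX, CREB and NF-Y factors that sit on a shared promoter module of X and Y boxes, and IFN-gamma induces it, in part through Irf1. In resting liver, class II is known mainly from dendritic cells, B cells and Kupffer cells, and hepatocytes carry little. C57BL/6 mice have a deletion in H2-Ea, the partner of H2-Eb1, so their classical surface molecule is the H2-Aa and H2-Ab1 pair.

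Summed RPKM was 173476 to 208647 per library. The number of reads behind each library is unknown here, and depth estimated from the commonest ratio of low values was 0.911 to 1.45 times that of female WT 1. Ifng lay higher in all 6 ARE-Del than in all 6 WT libraries (exact permutation of genotype within sex, 2-sided p = 0.005, the smallest its 400 arrangements allow). The library labelled female ARE-Del 2 had 0.0456 RPKM of Xist, against 33.0 to 45.6 in the other female libraries, and no Ddx3y. Results that rest on this library, other than correlations, are also given without it. Whether the 3 libraries of a group came from 3 animals is stated only as n = 3, so a p-value here measures the spread between these libraries.

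The promoters were compared because Ciita acts through one shared promoter module. RefSeq (GRCm38.p6) windows from 250 bases before to 50 bases after the gene start were at hand for 7 of the 10 symbols, in 8 windows, H2-DMa having 2. Cd74, H2-Ab1 and Ciita had no window, so their promoters were not examined. The stretch with the Y-box letters TGATTGG, which contain CCAAT on the opposite strand, is shown for each gene that had it. Capitals mark a 6-letter stretch ending in AAC, which resembles the start of the X box, and TGATTGG, all on the gene's own strand and 5′ to 3′.
H2-Oa, chr17:34092298-34092345, + strand: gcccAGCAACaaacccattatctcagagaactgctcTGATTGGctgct
H2-DMb2, chr17:34145121-34145168, + strand: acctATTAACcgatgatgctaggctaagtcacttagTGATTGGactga
H2-DMb1, chr17:34153092-34153139, + strand: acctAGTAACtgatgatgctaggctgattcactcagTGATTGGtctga
H2-Ob, chr17:34238813-34238857, + strand: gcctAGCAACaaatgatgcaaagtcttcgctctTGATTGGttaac
H2-Aa, chr17:34287862-34287909, - strand: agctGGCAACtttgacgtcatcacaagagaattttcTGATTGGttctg
H2-Eb1, chr17:34305771-34305817, + strand: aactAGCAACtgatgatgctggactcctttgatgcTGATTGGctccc

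In these 6 genes the stretch lay upstream of the gene start, with 38 to 85 bases between TGATTGG and the start. AAC and TGATTGG were 26 bases apart in H2-Oa, H2-DMb2, H2-DMb1 and H2-Aa, 25 in H2-Eb1 and 23 in H2-Ob. The pattern of AAC, then 19 to 28 bases, then TGATTGG on the gene strand was drawn up after the sequences were seen, and it was found in 6 of the 8 windows and in 131 of all 32851 mouse windows (0.399%). Both H2-DMa windows lacked it. Counting either strand, TGATTGG was in 6 of 8 windows (7.82% of all windows) and CCAAT, which overlaps it, in 7 of 8 (37.4%). The X-box letters AGCAAC were in 3 of 8 (14.8%), the CREB half-site TGACG in H2-Aa alone (20.8%), the STAT pattern TTCNNNGAA in H2-DMb2 alone (8.3%) and the IRF pattern GAAANNGAA in none (8.56%). These matches describe letters only. H2-DMb1 and H2-DMb2, which share a table entry, matched at 83.7% of 209 aligned bases of their upstream 250 bases and at 94.6% of 1255 aligned bases of the first transcript that GENCODE M21 lists for each, so their reads cannot be apportioned here.

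Every entry was higher in ARE-Del livers of both sexes. In all 9 entries the lowest of the 6 ARE-Del libraries exceeded the highest of the 6 WT libraries, which held for 9.45% of all 19852 entries. H2-Ob stayed below the filter on low values (0.5 RPKM or more in 3 or more libraries), and the other 8 entries were tested with limma on log2(RPKM + 1) over all 10568 genes that passed. H2-Oa and Ciita passed only through their ARE-Del libraries and so had to differ. This makes their own calls of ARE-Del against WT, and counts and medians over the 8, a description. Called means a Benjamini-Hochberg adjusted p below 0.05 over all tested genes. All 8 were called higher in females, where 31.3% of tested genes were called and 25.8% were called higher, and all 8 in males, where 21.5% were called and 19.5% higher. Their median log2 change was 4.10 in females and 3.996 in males, beside 0.09 and 0.10 over all tested genes. In bulk liver RNA, more cells of a type and more RNA per cell cannot be told apart, and this holds for every difference below.

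**Figure D1:**
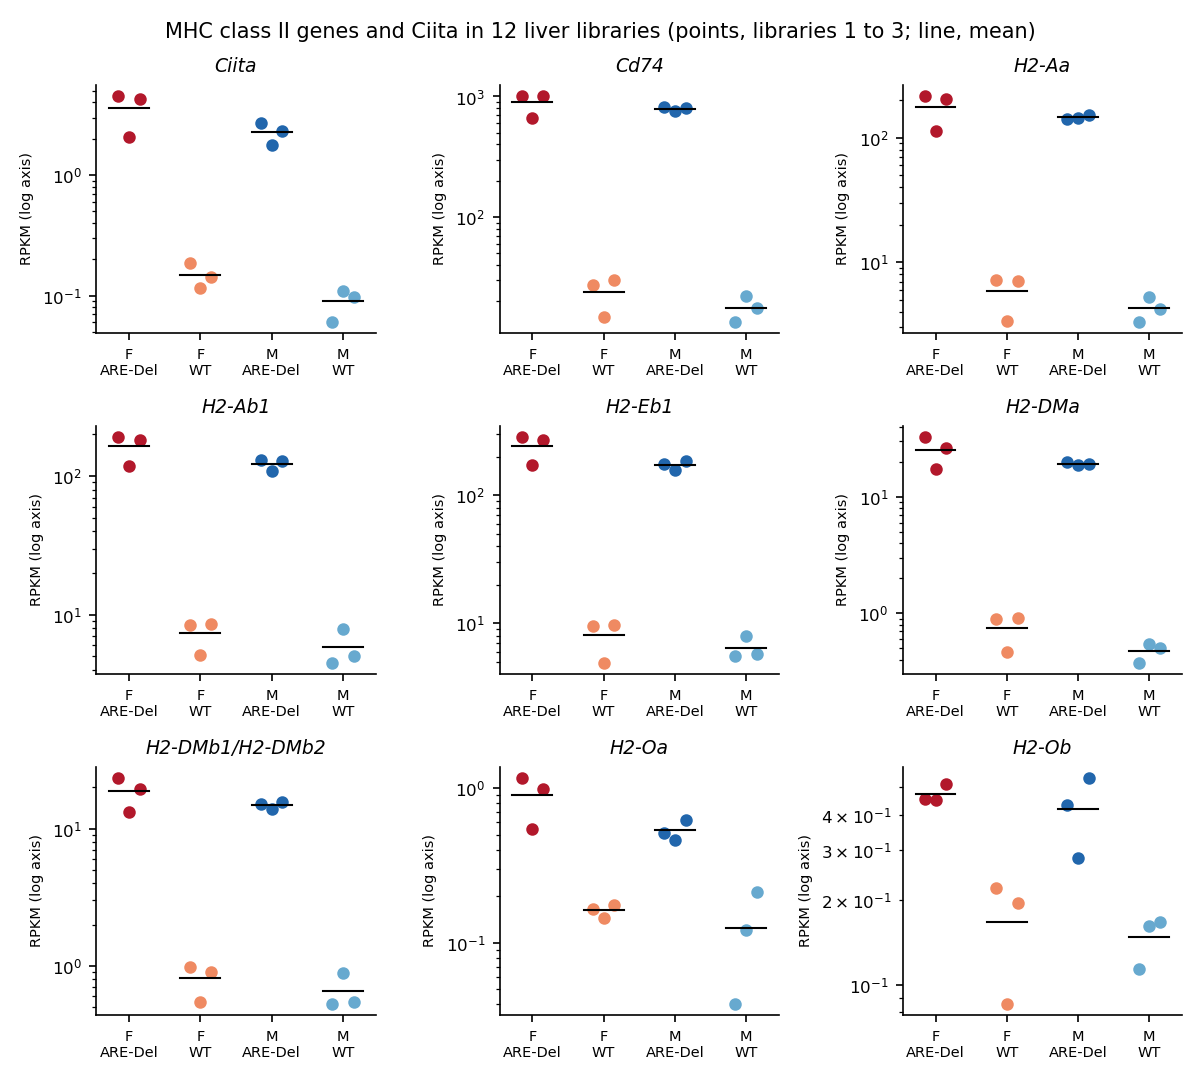
RPKM (log axis) of Ciita and the MHC class II genes in each of the 12 liver libraries, with ARE-Del left of WT in females (F) and in males (M); points are libraries 1 to 3 in order and the line is the group mean. The ARE-Del points lie above the WT points in all 9 panels, and the middle point of the female ARE-Del group (library 2) is the lowest of its group in each.

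Ciita, the master regulator of class II transcription, had the lowest group mean of the 9 entries in WT livers, where its range overlapped that of H2-Oa, and the seventh highest in ARE-Del livers. Its RPKM was 4.54, 2.08 and 4.25 in female ARE-Del libraries 1 to 3, against 0.187, 0.115 and 0.144 in female WT. In males it was 2.68, 1.77 and 2.33 in ARE-Del, against 0.0606, 0.110 and 0.0975 in WT. The groups did not overlap in either sex, and libraries 1 and 3 of the female ARE-Del group stood above all other libraries. The ratio of group means was 24.4 in females and 25.3 in males. Because WT values were far below 1 RPKM, the log2 change of RPKM + 1 is smaller, at 1.96 ± 0.18 in females (SE; limma, adjusted p = 4.1e-06) and 1.57 ± 0.18 in males (adjusted p = 7.3e-05). With a pseudocount of 0.1 these log2 changes were 3.84 and 3.63. Ciita passed the filter only through its ARE-Del libraries, so its calls are a description.

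Cd74, the invariant chain, was the highest entry in every group and had the largest log2 rise of all 10568 tested genes in both sexes. It had 1011, 662 and 1013 RPKM in female ARE-Del livers, against 27.2, 14.7 and 29.9 in female WT. In male ARE-Del livers it had 822, 752 and 795 RPKM, against 13.5, 22.3 and 17.5 in male WT. Library 2, the lowest of the female ARE-Del libraries, was still 22.2 times the highest female WT library. The log2 change was 5.20 ± 0.25 in females (SE; limma, adjusted p = 1.2e-07) and 5.42 ± 0.25 in males (adjusted p = 9.0e-08), and the ratio of means was 37.4 in females and 44.5 in males.

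The classical chains followed. H2-Aa, the alpha chain of the surface molecule, had 216, 112 and 202 RPKM in female ARE-Del, against 7.26, 3.39 and 7.03 in female WT, and 141, 143 and 152 in male ARE-Del, against 3.34, 5.28 and 4.19 in male WT. H2-Ab1, its beta partner, had 192, 119 and 183 RPKM in female ARE-Del, against 8.36, 5.12 and 8.49 in female WT, and 130.3, 109 and 129 in male ARE-Del, against 4.50, 7.91 and 5.06 in male WT. H2-Eb1, the beta chain without a partner in this strain, had 287, 173 and 270.4 RPKM in female ARE-Del, against 9.60, 4.92 and 9.78 in female WT, and 176, 159 and 184 in male ARE-Del, against 5.52, 8.01 and 5.73 in male WT. In each of the 3 genes the female ARE-Del libraries 1 and 3 were high, library 2 lay within or below the male ARE-Del range, and the lowest ARE-Del value (109) stood above the highest WT value (9.78). Their log2 changes were 4.69 ± 0.27, 4.31 ± 0.22 and 4.76 ± 0.24 in females for H2-Aa, H2-Ab1 and H2-Eb1 in that order, and 4.81 ± 0.27, 4.21 ± 0.22 and 4.57 ± 0.24 in males (limma, adjusted p between 1.3e-07 and 2.8e-07 in all 6 tests). Among all tested genes they ranked 4th, 7th and 3rd by rise in females and 3rd, 11th and 6th in males.

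The H2-DM chains, which load peptide, rose to a like degree from a lower level. H2-DMa had 32.7, 17.2 and 26.3 RPKM in female ARE-Del, against 0.891, 0.465 and 0.904 in female WT. Its male values were 20.0, 18.6 and 19.2 RPKM in ARE-Del, against 0.376, 0.542 and 0.504 in WT. The joint entry of H2-DMb1 and H2-DMb2 had 23.5, 13.2 and 19.4 RPKM in female ARE-Del, against 0.987, 0.545 and 0.904 in female WT, and 15.1, 13.9 and 15.6 in male ARE-Del, against 0.531, 0.884 and 0.547 in male WT. Both entries were under 1 RPKM in every WT library and above 13 RPKM in every ARE-Del library. H2-DMa had a log2 change of 3.88 ± 0.18 in females and 3.78 ± 0.18 in males (limma, adjusted p = 9.1e-08 and 9.0e-08), with ratios of means of 33.7 in females and 40.6 in males. The joint H2-DMb entry had a log2 change of 3.41 ± 0.17 in females and 3.27 ± 0.17 in males (limma, adjusted p = 1.2e-07 and 1.7e-07), with ratios of means of 23.0 and 22.8.

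The H2-DO chains, which inhibit H2-DM, stayed low. H2-Oa had 1.17, 0.543 and 0.987 RPKM in female ARE-Del, against 0.164, 0.144 and 0.176 in female WT. In males H2-Oa had 0.514, 0.460 and 0.625 RPKM in ARE-Del, against 0.0402, 0.120 and 0.214 in WT. H2-Oa was called higher in both sexes, with a log2 change of 0.69 ± 0.10 in females (SE; limma, adjusted p = 2.6e-04) and 0.45 ± 0.10 in males (adjusted p = 0.0096), and its ratio of means was 5.56 in females and 4.27 in males. With a pseudocount of 0.1 the log2 change of H2-Oa was 1.88 in females and 1.56 in males. The calls of H2-Oa are a description, as it passed the filter only through its ARE-Del libraries. H2-Ob had 0.453, 0.450 and 0.515 RPKM in female ARE-Del, against 0.220, 0.0859 and 0.195 in female WT, and 0.431, 0.281 and 0.540 in male ARE-Del, against 0.114, 0.161 and 0.167 in male WT. Its mean difference on the log2(RPKM + 1) scale was 0.32 (exact permutation of genotype within sex, 2-sided p = 0.005, the smallest possible), and within 1 sex 3 against 3 libraries cannot go below p = 0.1, the value in both. The ratio of means of H2-Ob was 2.83 in each sex, so the 2 H2-DO entries had the smallest ratios of the 9.

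**Figure D2:**
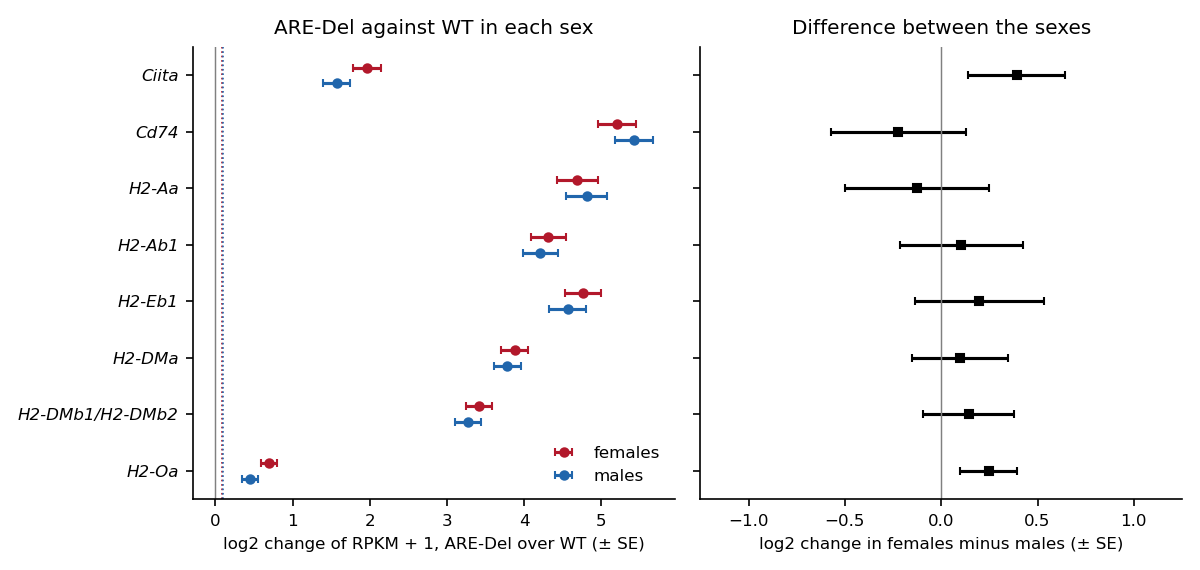
Left, log2 change of RPKM + 1 for ARE-Del over WT (± SE) of the 8 tested entries in females (red) and males (blue), with dotted lines at the median of all tested genes (0.09 and 0.10); right, the difference of that change between the sexes (females minus males, ± SE). Changes run from 0.45 for H2-Oa in males to 5.42 for Cd74 in males, and none of the 8 differences at right was called.

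Within a library, the ratios of some class II genes differed between the genotypes and those of others overlapped. H2-DMa over H2-Oa was 28.8 ± 2.59 in female ARE-Del, against 4.59 ± 1.20 in female WT, and 36.7 ± 5.25 in male ARE-Del, against 5.40 ± 3.58 in male WT (ratio of RPKM, SD, n = 3). The H2-DMb entry over H2-Ob was 39.6 in female ARE-Del, against 5.16 in female WT, and 37.9 in male ARE-Del, against 4.48 in male WT. In both ratios of H2-DM to H2-DO chains, each ARE-Del library lay above each WT library. The denominators were at most 0.220 RPKM in WT, so these WT ratios rest on low values.

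Cd74 also gained on the chains it accompanies. Cd74 over H2-Ab1 was 5.45 ± 0.16 in female ARE-Del, against 3.22 ± 0.32 in female WT, and 6.46 ± 0.38 in male ARE-Del, against 3.09 ± 0.32 in male WT. H2-Aa over H2-Ab1 was 1.06 ± 0.10 in female ARE-Del, against 0.786 ± 0.11 in female WT, and 1.19 ± 0.11 in male ARE-Del, against 0.746 ± 0.081 in male WT. In the order of levels, H2-Aa stood above H2-Ab1 in ARE-Del and below it in WT, although the ranges of the 2 genes overlapped in each group but male ARE-Del. H2-DMa likewise stood above the H2-DMb entry in ARE-Del and below it in WT, with a ratio of 1.35 ± 0.044 in female ARE-Del, against 0.918 ± 0.075 in female WT, and 1.29 ± 0.061 in male ARE-Del, against 0.748 ± 0.16 in male WT. For these 3 ratios the ARE-Del and WT libraries did not overlap in either sex.

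H2-Ab1 over Ciita, in contrast, was 47.6 ± 8.46 in female ARE-Del, against 49.5 ± 8.29 in female WT, and 55.2 ± 6.57 in male ARE-Del, against 66.0 ± 12.3 in male WT. The ARE-Del and WT libraries overlapped in both sexes. That did not hold for every class II gene. H2-DMa over Ciita was 7.22 ± 1.04 in female ARE-Del, against 5.04 ± 1.14 in female WT, with overlap. In males it was 8.73 ± 1.59 in ARE-Del, against 5.44 ± 0.68 in WT, with no overlap. H2-Oa over Ciita was 0.250 in female ARE-Del, against 1.12 in female WT, and 0.240 in male ARE-Del, against 1.32 in male WT, with no overlap. These ratios use RPKM with no pseudocount and were not tested. With a pseudocount of 1 the mean log2 ratio of H2-Ab1 over Ciita was 5.18 in female ARE-Del, against 2.83 in female WT, and 5.25 in male ARE-Del, against 2.61 in male WT, so the overlap of the groups depends on leaving it out.

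**Figure D3:**
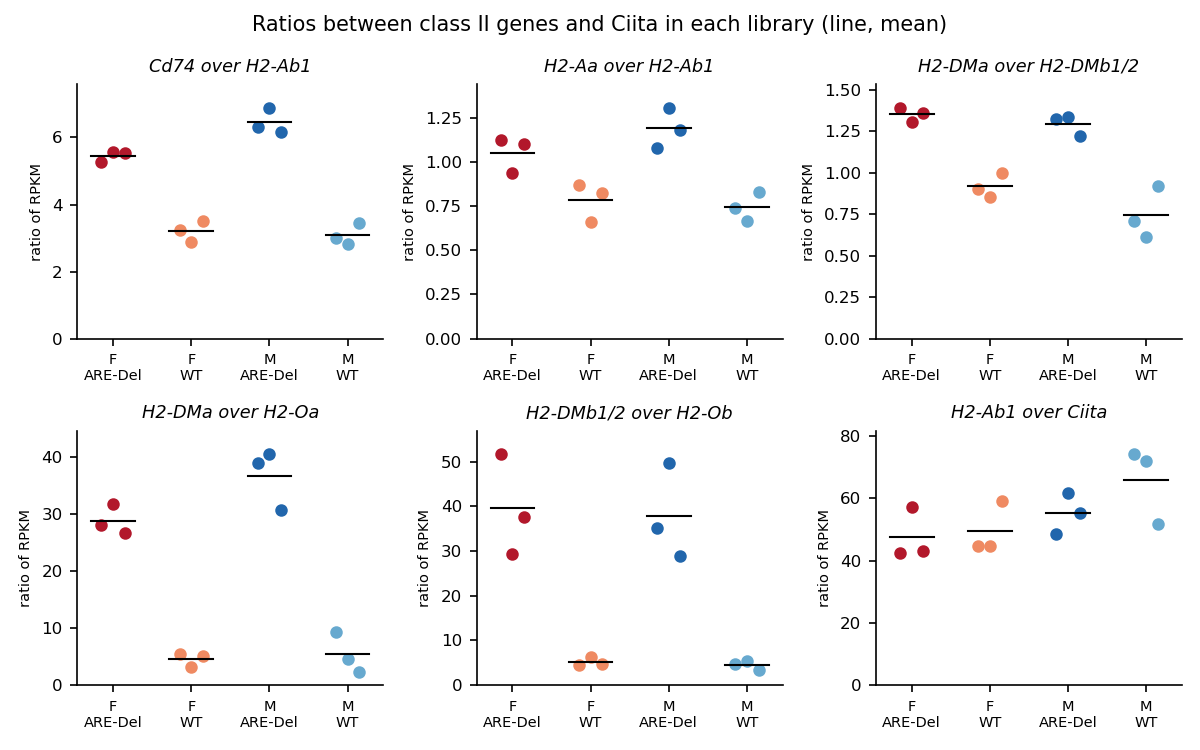
Ratio of RPKM between pairs of class II genes, or a class II gene and Ciita, in each of the 12 libraries, with no pseudocount; points are libraries and lines are group means, with ARE-Del left of WT in females (F) and males (M). The H2-DM over H2-DO ratios run from 26.7 to 51.7 in ARE-Del and from 2.36 to 9.35 in WT, whereas H2-Ab1 over Ciita overlaps between the genotypes.

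The sexes were compared next, since the study asked about sex-biased expression. The difference of the ARE-Del effect between females and males was called for 0 of the 8 tested entries by limma's interaction contrast, where 0.568% of tested genes were called. None had an unadjusted p below 0.05, and the differences (females minus males) ran from -0.22 ± 0.35 for Cd74 to 0.39 ± 0.25 for Ciita on the log2 scale. Females and males in WT also gave no call among the 8, none at an unadjusted p below 0.05, where 9.76% of tested genes were called. In ARE-Del livers, females against males gave none of 8 calls, where 22.4% of tested genes were called. Here 2 entries had an unadjusted p below 0.05, Ciita at 0.47 ± 0.18 higher in females (limma, adjusted p = 0.080) and H2-Oa at 0.30 ± 0.10 higher (adjusted p = 0.061). A p above the threshold does not show that the sexes are alike.

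The comparison of the sexes depended on 1 library. Female ARE-Del libraries 1 and 3 each lay above the range of the 3 male ARE-Del libraries in 8 of 9 entries, all but H2-Ob. Female ARE-Del 2, the library with almost no Xist, lay above that range in 0 entries, within it in 5 and below it in 4 (Cd74, H2-Aa, H2-DMa and the H2-DMb entry). Ciita, for example, was 2.01 and 1.88 times the male ARE-Del mean in libraries 1 and 3, and 0.920 times in library 2. Without library 2, 4 of 8 entries were called higher in female than in male ARE-Del livers, where 21.1% of tested genes were called. They were Ciita (0.74 ± 0.10, limma adjusted p = 6.2e-04), H2-Oa (0.44 ± 0.07, adjusted p = 0.0021), H2-DMa (0.58 ± 0.12, adjusted p = 0.0067) and the H2-DMb entry (0.49 ± 0.13, adjusted p = 0.020). Cd74 was not called without it (0.36 ± 0.25, limma adjusted p = 0.36), nor were H2-Aa (0.52 ± 0.24), H2-Ab1 (0.61 ± 0.22) and H2-Eb1 (0.69 ± 0.23), with adjusted p of 0.15, 0.068 and 0.055. The interaction contrast for Ciita was then 0.66 ± 0.13 (limma, adjusted p = 0.051), and none of the 8 was called. All 8 calls of ARE-Del against WT held without this library in both sexes, those of H2-Oa and Ciita as a description.

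**Figure D4:**
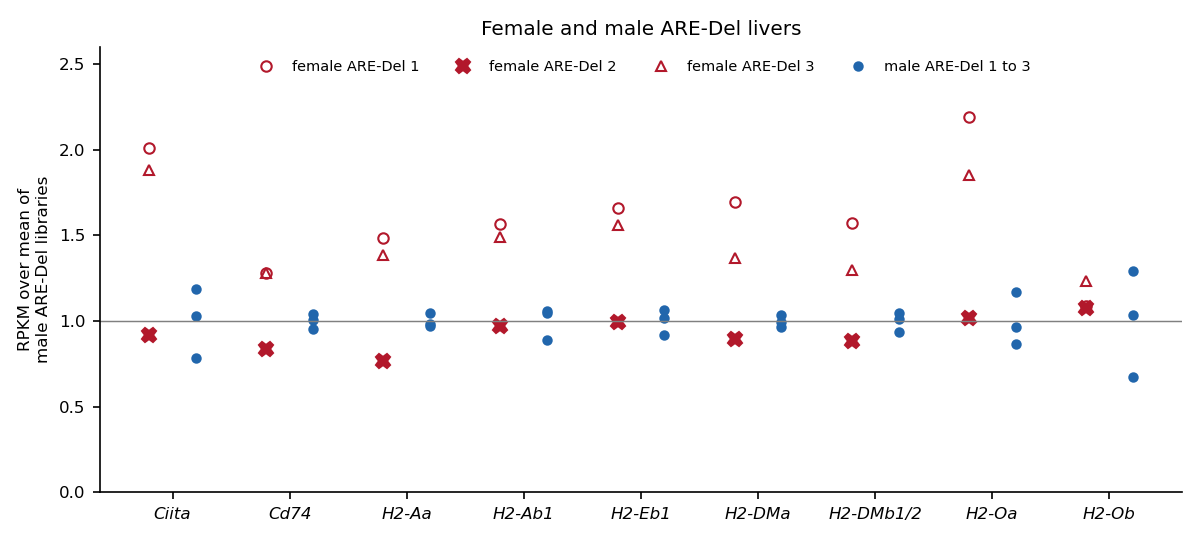
RPKM of each entry in the 3 female ARE-Del libraries (red, left) and the 3 male ARE-Del libraries (blue, right), divided by the mean of the male ARE-Del libraries. Female libraries 1 and 3 lie at 1.28 to 2.19 times the male mean in every entry but H2-Ob, while female library 2, drawn as a filled cross, lies at 0.770 to 1.08 times.

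Libraries of 1 group that were high for one class II gene tended to be high for the others. Deviations from the group means correlated at r = 0.934 to 0.975 between pairs of Cd74, H2-Aa, H2-Ab1 and H2-Eb1 over the 12 libraries, and at 0.953 between H2-DMa and the H2-DMb entry. Between Ciita and each of those 4 classical and invariant chain genes r was 0.554 to 0.676. It was higher between Ciita and H2-DMa (0.856), the H2-DMb entry (0.830) and H2-Oa (0.862). The genes share their libraries and depth, so these values are a description. Deviations were taken on log2(RPKM + 1), where Ciita, at most 0.187 RPKM in WT, can vary little between WT libraries. The r of Ciita therefore rests mainly on the ARE-Del libraries. None of these r was computed without female ARE-Del 2. Female WT 2 was the lowest of its group in 9 of 9 entries, and so was male WT 1 in its group.

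Upstream of Ciita, a list of IFN-gamma signalling genes and transcription factors, with the myeloid factors Irf8 and Spi1 among them, was also examined. Of 8 tested genes of this list all 8 were called higher in both sexes, beside 25.8% of all tested genes in females and 19.5% in males. Their median log2 change was 0.66 in females and 0.55 in males. Irf1, a transcription factor that acts at the Ciita promoter, changed by 1.39 ± 0.14 in females and 1.59 ± 0.14 in males (SE; limma, adjusted p of at most 1.2e-05). Irf8, a macrophage and dendritic cell factor, changed by 1.43 ± 0.10 in females and 0.95 ± 0.10 in males, and Spi1 (PU.1, a myeloid factor) by 1.63 ± 0.19 and 1.23 ± 0.19. Irf8 reached the filter only with its ARE-Del libraries, so its call is a description, and the other 7 reached it in WT libraries alone. The receptor and kinase genes changed less, from 0.80 ± 0.07 for Ifngr1 to 0.24 ± 0.07 for Jak2 in females. Under median-of-ratios scaling, 6 of these 8 were called in females and 5 in males.

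Of the 7 genes of the DNA-binding partners RFX, NF-Y and CREB, 1 was called higher in females (Nfya, 0.31 ± 0.06, limma adjusted p = 0.0017), where 25.8% of all tested genes were called higher. In males 0 of the 7 were called by limma, beside 19.5% of all tested genes, and 1 (Nfya, 0.17 ± 0.06) had an unadjusted p below 0.05. Without female ARE-Del 2, 2 of the 7 were called higher in females. Rfx5, the RFX subunit with the DNA-binding domain, changed by 0.26 ± 0.13 in females (limma, adjusted p = 0.15) and by 0.19 ± 0.13 in males. The median of the 7 was -0.0048 in females and 0.11 in males, and under quantile normalization 3 of the 7 were called lower in females, and under both scalings Nfyb was called lower in males. Nlrc5 (listed as AI451557), the relative of Ciita that drives MHC class I genes, rose by 1.20 ± 0.09 in females and 1.00 ± 0.09 in males (SE; limma, adjusted p = 1.3e-06 and 1.5e-05). Among the other 4 tested coactivator genes, Ep300 alone was called, in females (0.19 ± 0.07, limma adjusted p = 0.049). That call was lost under both scalings (limma adjusted p = 0.37 and 0.87) and without female ARE-Del 2 (adjusted p = 0.055).

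Genes that process the invariant chain and antigen rose in both sexes, 8 of 10 called higher and 0 lower in each. Among all tested genes, 25.8% were called higher in females and 19.5% in males. The median log2 change of the 10 was 0.74 in females and 0.58 in males. Under median-of-ratios scaling, 7 of the 10 were called higher and 1 lower in females, and 8 higher and 0 lower in males. Ctss, the protease that makes the last cut of the invariant chain in antigen-presenting cells, changed most, by 2.54 ± 0.19 in females and 2.20 ± 0.19 in males (SE; limma, adjusted p = 1.2e-06 and 1.2e-05). Lgmn, an asparagine endopeptidase, changed by 1.40 ± 0.17 in females and 1.06 ± 0.17 in males, and Ifi30, a thiol reductase that unfolds antigen, by 1.39 ± 0.11 and 0.83 ± 0.11. The lysosomal membrane genes Lamp1 and Lamp2 were not called, at 0.20 ± 0.08 and -0.14 ± 0.07 in females; under both scalings Lamp2 was called lower in females. For turnover, March1 (listed under a date, as is March8), the ligase that removes class II from the surface, differed by 1.05 ± 0.09 in females and 0.63 ± 0.09 in males, and Cd83, which opposes it, by 1.07 ± 0.12 and 0.62 ± 0.12 (log2, SE). Both reached the filter only with their ARE-Del libraries, so these are a description. March8 was not called, at -0.20 ± 0.08 in females and -0.05 ± 0.08 in males, but it was called lower in females under both scalings, and in males under median-of-ratios scaling. At the cell surface, Cd74 serves as a receptor for Mif with Cd44 and Cxcr4. All 3 were called higher in females and 2 of 3 in males, beside 25.8% and 19.5% of all tested genes. Cxcr4 reached the filter only with its ARE-Del libraries, so its call in females is a description. Cd44 changed by 1.14 ± 0.10 in females and 0.72 ± 0.10 in males. Cxcr2, a further co-receptor (listed as Il8rb), was below the filter, and its ARE-Del and WT libraries overlapped in both sexes.

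The class II genes lie together on chromosome 17, between genes of other functions. Within the cluster, Psmb9, Tap1, Psmb8 and Tap2, which serve MHC class I and stand between H2-DMb1 and H2-Ob in the RefSeq order, rose with log2 changes of 2.53 ± 0.14, 2.33 ± 0.14, 2.24 ± 0.13 and 1.48 ± 0.09 in females (limma, adjusted p between 1.9e-07 and 4.9e-07). In males they were 2.53 ± 0.14, 2.01 ± 0.14, 2.54 ± 0.13 and 1.42 ± 0.09. Brd2, a bromodomain gene that stands between H2-Oa and H2-DMa, was not called, at 0.12 ± 0.11 in females (limma, adjusted p = 0.46) and 0.01 ± 0.11 in males (adjusted p = 0.96). Over all 12 tested neighbours, 7 were called higher in females and 5 in males, with 0 lower and a median of 0.32 in females and 0.20 in males, beside 25.8% and 19.5% of all tested genes called higher. Those counts include the 4 class I genes Psmb9, Tap1, Psmb8 and Tap2 in each sex. Of the 4 tested neighbours of Ciita on chromosome 16, 0 were called by limma in females (1 at an unadjusted p below 0.05) and 1 in males (Emp2, 0.43 ± 0.11), a call lost under both scalings (limma adjusted p = 0.050 and 0.12). Of 5 tested neighbours of Cd74, 1 was called in females (Rps14, 0.27 ± 0.09), lost under median-of-ratios scaling and without female ARE-Del 2 (limma adjusted p = 0.36 and 0.084), and 0 by limma in males (0 at an unadjusted p below 0.05). Under both scalings tried, 1 of the 12 cluster neighbours was called lower in each sex.

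**Figure D5:**
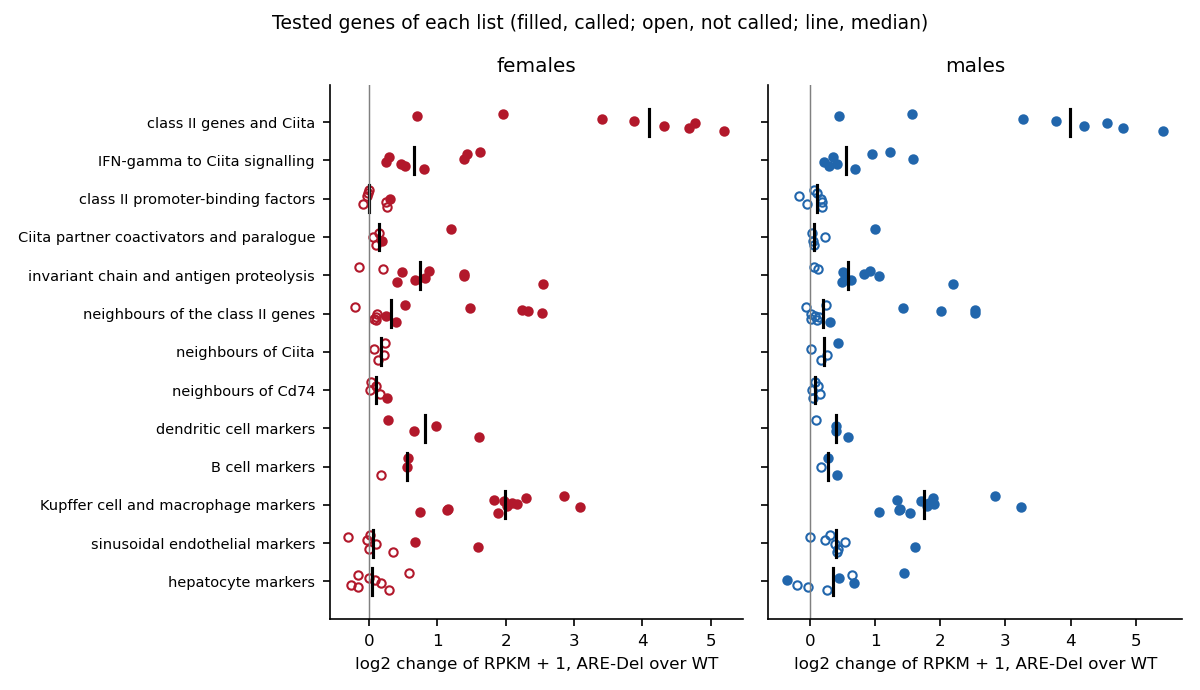
Log2 change of RPKM + 1 for ARE-Del over WT of each tested gene in the class II entries with Ciita and in 12 gene lists, in females (left) and males (right); filled points were called, open points were not, and black lines mark list medians. Dendritic cell and B cell markers reached the filter only with ARE-Del libraries. The class II median of 4.10 in females and 3.996 in males stands beside 1.99 and 1.75 for macrophage markers and 0.04 and 0.35 for hepatocyte markers in the same order.

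Markers of macrophages, which carry class II, were also higher in ARE-Del livers. All 12 Kupffer cell and macrophage markers were called higher in both sexes, beside 25.8% of all tested genes in females and 19.5% in males. The markers had a median log2 change of 1.99 in females and 1.75 in males. Their summed level was 724 to 850.3 RPKM in female ARE-Del, against 136 to 230.1 in female WT, and 410 to 503 in male ARE-Del, against 94.8 to 158 in male WT. Clec4f, which marks resident Kupffer cells, changed by 0.74 ± 0.18 in females and 1.05 ± 0.18 in males, and the scavenger receptor gene Marco by 3.09 ± 0.50 and 3.24 ± 0.50 (SE; limma). Without female ARE-Del 2, the change of Marco in females was 2.56 (limma, adjusted p = 0.0016). None of these 12 markers was at 0 in any library.

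For dendritic cells, B cells and T cells, every tested marker (4, 3 and 5 genes) reached the filter only with ARE-Del libraries, as did 2 of 4 monocyte markers, so their calls are not counted and the summed level of all measured markers is given. Over 9 dendritic cell markers it was 5.82 to 7.15 RPKM in female ARE-Del, against 1.36 to 1.81 in female WT, and 2.36 to 3.23 in male ARE-Del, against 0.832 to 1.46 in male WT. Over 10 B cell markers it was 3.14 to 4.34 RPKM in female ARE-Del, against 1.59 to 2.12 in female WT, and 1.97 to 3.01 in male ARE-Del, against 1.16 to 1.63 in male WT. Over the T cell markers it was 3.61 to 6.51 RPKM in female ARE-Del, against 0.381 to 1.38 in female WT, and 1.65 to 3.18 in male ARE-Del, against 0.391 to 0.624 in male WT. Both monocyte markers that reached the filter in WT libraries alone were called higher in both sexes, beside 25.8% of all tested genes in females and 19.5% in males.

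Over the 5 summed lists of dendritic cell, B cell, T cell, monocyte and macrophage markers, 3 of the 4 libraries lowest in class II were also the lowest of their group in most lists. Female WT 2 and male WT 1, each the lowest of its group in all 9 entries, were the lowest in 5 and 4 of the 5 lists in that order. Male ARE-Del 2, the lowest in 8 of 9 entries, was the lowest in 5 of 5. Female ARE-Del 2, the lowest of its group in all 9 entries, instead had the highest summed level of its group for dendritic cell markers (7.15 RPKM), for Kupffer cell and macrophage markers (850.3 RPKM) and for monocyte markers (73.2 RPKM), and the lowest for B cell markers (3.14 RPKM) and T cell markers (3.61 RPKM). Of those 3 top places, 2 rest on 1 gene each: without Itgax the dendritic cell sum of library 2 was 3.90 RPKM, the lowest of its group, and without Marco its macrophage sum was 768 RPKM, below the 791 RPKM of library 3.

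Markers of the other liver cells were called at shares to be read against 25.8% of all tested genes called higher in females and 19.5% in males. Sinusoidal endothelial markers were called higher in 2 of 8 in females and 1 of 8 in males, and stellate cell markers in 3 of 7 in each sex. Of 2 tested cholangiocyte markers, Sox9 reached the filter only with its ARE-Del libraries, so its call in each sex is a description. The other cholangiocyte marker was not called in either sex. Without female ARE-Del 2 the sinusoidal count in females was 1, and that other cholangiocyte marker was called higher in females. Under median-of-ratios scaling the stellate count in males was 1. Hepatocyte markers were called by limma in 0 of 8 in females (3 at an unadjusted p below 0.05), and in males 3 were higher and 1 lower, though under median-of-ratios scaling 2 were lower in females. The part of these cell types in the class II result was not tested.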

How the data were processed

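The authors deposited 1 table of RPKM values for all 12 libraries, made, per the submitters' processing notes, with Trimmomatic 0.30, TopHat2 2.0.8, Partek, GenomeStudio 6.6 and the mm9 build. The counting method and use of strand are not stated there, so reads of overlapping or near-identical genes could be shared.

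Table columns were matched to samples through the sample descriptions. Of 19852 entries, 10568 reached 0.5 RPKM in 3 or more libraries. Log2(RPKM + 1) was fitted with limma 3.58.1 (R 4.3.3) as 4 group means with a mean-variance trend, and p-values were adjusted by Benjamini-Hochberg over all tested genes in each of 5 comparisons. The procedure was tested on simulated data. Exact permutation of genotype within sex served for genes under the filter. SD is over 3 libraries and SE is that of limma. Depth in reads is unknown, so no counting interval is given.

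The 10 genes and the 20 lists (159 symbols, 150 found, 8 of them merged with another gene and left out of counts) were chosen with earlier results of these data known. Named from a list were the genes with the largest change in females (up to 4), and any gene of the signalling, promoter, coactivator, proteolysis and turnover lists. Brd2 and Clec4f were named after their values were seen. H2-Ea was not analysed here, and 1 gene of the signalling list is not reported here. Promoter windows came from RefSeq (GRCm38.p6), a different build from mm9, and were matched by symbol. H2-DMb1 and H2-DMb2 were aligned with Biopython 1.88, and figures drawn with matplotlib 3.10.9 (Python 3.11.15).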

Additional observations from a re-analysis of the deposited data

How the results depend on the processing

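The 8 tested entries were called higher in ARE-Del in both sexes under every alternative in which they were tested: pseudocounts, filters, scalings, each sex alone, the replicate block, no variance trend and leaving out each library. H2-Oa did not pass the filter on a mean of at least 1 RPKM, and its highest adjusted p in males was 0.049 (limma). Calls of H2-Oa and Ciita made under a filter are a description. With no filter H2-Ob was tested too, and 9 of 9 were called in both sexes. Over all genes above 0 RPKM in any library, that setting called 4086 genes in females (3489 higher and 597 lower). In males it called 2104 (1881 higher and 223 lower). The number of genes tested with no filter, at most the 19852 entries, is not given here. The 9 of 9 therefore has no background share beside it. Both scalings moved the median change of all genes by -0.12 and -0.15 in females and by -0.12 and -0.14 in males, for median-of-ratios and quantile in that order. Calls then split into 1790 higher and 2040 lower in females and 1165 and 1112 in males (median-of-ratios), and 1630 and 2451 in females and 1025 and 1149 in males (quantile), beside 2722 and 584 in females and 2056 and 216 in males as deposited. For females against males they split into 1428 and 1415 (median-of-ratios) and 1346 and 1566 (quantile) in ARE-Del, beside 1734 and 636, and into 674 and 823, and 626 and 839, in WT, beside 710 and 321. The interaction gave 26 higher and 14 lower under median-of-ratios scaling, beside 46 and 14.

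Among the 60 genes called for the interaction as deposited, none was a class II entry. Their number was 14 and 15 with pseudocounts of 0.1 and 0.5, 30 with no filter, 6 with the filter on the mean, 37 after quantile normalization, 39 without the trend and 32 with the replicate block. Leaving out 1 library at a time gave 11 to 114 interaction calls, 1271 (without male WT 1) to 2480 calls in males, 1453 (without male ARE-Del 2) to 2498 between the sexes in ARE-Del, and 535 (without male WT 1) to 1126 in WT. Without female ARE-Del 3 the calls between the sexes in ARE-Del were 1522, and without female WT 1 those in WT were 655. Of the 8 entries, 0 to 4 were called between the sexes in ARE-Del, 4 without female ARE-Del 2. The cause was not tested.

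Same-numbered libraries did not all deviate together (r = -0.077, 0.11 and 0.18 in females, -0.053, -0.17 and 0.12 in males). The labels give only the number, and these r cannot exclude a pairing. With the replicate block, 1 of the 8 entries (Ciita, adjusted p = 0.048 by limma) was called between the sexes in ARE-Del. The block gave 3019 calls in females and 2024 in males.

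Log2 ratios between 2 of the genes were moved by more than 1 SD by the pseudocount in 28 of 44 cases. Values below 1 RPKM, as of Ciita, H2-DM and H2-DO chains in WT, are the least precise.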

Other observations

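H2-Eb2, a class II beta chain gene that stands next to H2-Eb1, was below the filter on low values. Its RPKM was 0.536, 0.185 and 0.298 in female ARE-Del, against 0.0678, 0.0357 and 0.0208 in female WT, and 0.135, 0.266 and 0.193 in male ARE-Del, against 0.00830, 0.0621 and 0.0331 in male WT. No ARE-Del library overlapped a WT library (9.45% of all entries had every ARE-Del library higher), and the mean difference on the log2(RPKM + 1) scale was 0.28 (exact permutation of genotype within sex, 2-sided p = 0.005, the smallest possible). Its RefSeq window also held AAC, 19 to 28 bases and TGATTGG on the gene strand.

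Among the genes whose log2(RPKM + 1) was most like the mean of Cd74, H2-Aa, H2-Ab1 and H2-Eb1 over the 12 libraries were the immunity-related GTPase gene Irgb10 (r = 0.996), the ubiquitin-like modifier Ubd (0.992), the joint Tgtp entry (0.992), Psmb9 (0.992), Irgm (0.991), Slfn8 (0.991) and Mpeg1 (0.990). For Ciita they were Batf2 (0.998), Casp12 (0.994), the joint Gbp4 entry (0.993), Gzmb (0.990) and Casp1 (0.989). These values describe genes that share libraries and the difference between genotypes, and they carry no p. For deviations from the group means, r was 0.956 between Batf2 and Ciita and 0.853 between Irgb10 and the class II mean.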
